A study of Bos taurus with 38 samples.

Results

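Transcripts of genes that cut or guard the extracellular matrix were followed in single cattle oocytes and in the cumulus cells around each of them: MMP25 (ENSBTAG00000016424), ADAMTS16 (ENSBTAG00000018460), BSG (ENSBTAG00000016648) and TIMP2 (ENSBTAG00000010899). They are 4 of the 27607 gene identifiers counted in each compartment. They were picked because the study's tables of BCB differences or of co-expression name them, so measured values chose them, and the measures that did so are given as descriptions with no test. The complexes came from antral follicles of abattoir ovaries and had a compact cumulus, and the animals behind single complexes are not named. Each complex was exposed to brilliant cresyl blue (BCB), a dye that oocytes at the end of their growth no longer break down. Oocytes that stayed blue are BCB positive (9 complexes) and those that lost the colour are BCB negative (10 complexes). No complex had been matured in culture, and all were taken apart with trypsin and pipetting into the oocyte and its cumulus cells, so that 19 complexes gave 38 libraries.

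Matrix metalloproteinases and the ADAMTS family are zinc proteases that cut collagens, proteoglycans and other proteins outside the cell or at its surface. MMP25 is a membrane-type metalloproteinase held on the cell surface by a lipid anchor and known best from leukocytes, and ADAMTS16 is a secreted protease with thrombospondin motifs. Basigin, the product of BSG, is a membrane glycoprotein of the immunoglobulin superfamily, known as an inducer of matrix metalloproteinases in neighbouring cells and as a partner that brings lactate transporters to the membrane. TIMP2 inhibits matrix metalloproteinases and also takes part in the activation of MMP2 at the cell surface. In the ovary, such proteases and inhibitors are known from the remodelling of the follicle wall and of the matrix between the cumulus cells.

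The complexes carry numbers in 3 runs, with 3 positive and 1 negative in 6 to 24, 6 positive and 3 negative in 65 to 74, and 6 negative and no positive in 86 to 91. In the last of these, effects of the run and of BCB staining cannot be told apart. Library totals were 8886070 to 29810354 counts in oocytes and 1103200 to 10430148 in cumulus cells, with medians of 5853816 in BCB positive and 2252271 in BCB negative cumulus. The zona pellucida genes ZP2 and ZP3 had at least 1398 and 1247 in all oocytes on the scale used throughout, CPM of the library total after trimmed-mean (TMM) scaling within a compartment, here called scaled CPM. Each compartment also held transcripts that mark the other. The summed level of 8 cumulus markers ran from 58.1 to 2944 in oocytes (median 125), against 6844 to 26110 in cumulus cells, and was highest in the oocyte of complex 72. SERPINE2 alone had medians of 105 in BCB positive and 87.9 in BCB negative oocytes, where the sum had 152 and 98.1. INHA had 13.9 and 1.24 in these groups. Low sums in oocytes thus rested mostly on SERPINE2. The sum of 3 oocyte markers in cumulus cells ran from 0.0903 to 1.64 in BCB positive and from 0.607 to 92.7 in BCB negative complexes, highest in complexes 68 and 66. Fits without complex 72, or without complexes 66 and 68, are given where these libraries bear on a difference. No leukocyte marker could be checked, since none of those listed had an identifier paired with its symbol here. Neither cell number nor RNA amount was measured, so what set the library totals cannot be told from these libraries.

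The genes fell into pairs by compartment. MMP25 and ADAMTS16 transcripts were found almost entirely in oocytes, whereas BSG and TIMP2 were present in both compartments and more abundant in cumulus cells. Between genes, levels are not compared, since transcript lengths were not used. The difference between compartments was tested with edgeR's quasi-likelihood test over 14785 genes and all 38 libraries, and at a false discovery rate (FDR) of 0.01 it called 88.8% of all genes tested, 46.5% as higher in oocytes and 42.3% as lower. BSG and TIMP2 passed, which is a common outcome here. MMP25 and ADAMTS16 entered this test only through their oocyte levels, since they stayed below a CPM of 2 in all 19 cumulus libraries, so that they had to differ and their values are given with no p.

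MMP25 in oocytes ran from 15.9 scaled CPM in complex 86 to 75.3 in complex 71, with a median of 31.8 (185 to 1615 counts). In cumulus cells it had 15 counts in all 19 libraries together, with 12 libraries at 0 and at most 5 counts in any. Every oocyte lay above every cumulus library. Pooled over libraries, the cumulus counts were 0.162 CPM (95% exact Poisson interval 0.0908 to 0.268), or 0.452% of the pooled oocyte level (0.253 to 0.746). These intervals cover counting error only. On the log2 scale, the fitted level was 7.46 ± 0.31 (SE) higher in oocytes. It was 9.22 higher within BCB positive and 5.70 within BCB negative complexes, values that rest on the few cumulus counts.

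The traces of MMP25 in cumulus cells were not spread evenly. BCB positive cumulus held 4 counts (0.0658 CPM, 0.0179 to 0.169) and BCB negative cumulus 11 counts (0.347 CPM, 0.173 to 0.621). All 11 came from complexes 86, 87, 89 and 91, with 3, 2, 5 and 1 counts, and the 4 BCB negative complexes with earlier numbers had 0, as had complexes 88 and 90. Those 4 earlier ones were the shallowest cumulus libraries, with totals of 1103200 to 1772144, where few counts could be seen. In oocyte markers, BCB negative cumulus held 81 counts of ZP2 and 133 of ZP3, against 9 and 10 in BCB positive cumulus. Relative to the oocytes of the same class these were 0.15% and 0.269% in BCB negative cumulus, below the 1.36% (0.677 to 2.43) of MMP25, while DAZL, an RNA-binding protein of germ cells, stood at 0.874%. Complexes 66 and 68, which held the most ZP2 and ZP3 in cumulus cells, had 0 counts of MMP25. Their cumulus libraries held only 1624128 and 1103200 counts, and 0 counts have an exact Poisson interval of 0 to 3.69. The part of oocyte RNA in the MMP25 counts of cumulus cells was not tested.

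ADAMTS16 was scarce in oocytes too. It ran from 0.549 scaled CPM in complex 68 to 4.53 in complex 19, with a median of 2.22, and rested on 5 to 95 counts per library. The 5 counts of complex 68 have an exact Poisson interval of 1.62 to 11.7 counts. In cumulus cells 11 counts were found in all, with 11 of 19 libraries at 0 and at most 3 counts in any. Pooled, cumulus cells had 0.119 CPM (0.0594 to 0.213), which was 4.76% (2.38 to 8.52) of the oocyte level. The oocyte was higher than its own cumulus cells in 19 of 19 complexes, and 18 of 19 oocytes lay above the highest cumulus library. The fitted difference was 3.80 ± 0.43 on the log2 scale (SE), with 4.91 within BCB positive and 2.69 within BCB negative complexes.

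BSG was the steadiest of the genes. In oocytes it ran from 52.2 scaled CPM in complex 68 to 111 in complex 72 (median 67.8), and in cumulus cells from 179 in complex 66 to 414 in complex 72 (median 293). The ranges did not overlap, and the cumulus level was the higher in all 19 complexes. The coefficient of variation over the 19 libraries was 20.9% in oocytes and 20.1% in cumulus cells. Expressed as a percent of the level in its own cumulus cells, the oocyte level of BSG ran from 18.4% in complex 89 to 35.2% in complex 6, with a median of 26.1%. On the log2 scale the oocyte was lower by an estimated -2.44 ± 0.09 (SE, edgeR adjusted p = 5.77e-25). That fit scaled all 38 libraries together, whereas scaled CPM and the percents come from scaling within each compartment. The fitted differences and the percents are therefore not on one scale, for BSG as for TIMP2.

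TIMP2 differed more widely between oocytes than any of the other 3 genes. The lowest oocyte, of complex 65, had 0.389 scaled CPM from 5 counts, the median was 3.77, and the highest, of complex 72, had 12.8 from 320 counts. Cumulus cells ran from 42.6 in complex 74 to 112 in complex 70, with a median of 69.7. The oocytes' coefficient of variation was 69.9%, against 27% in cumulus cells, where counts were 33 to 1309. The estimated difference was -4.49 ± 0.26 on the log2 scale (SE, edgeR adjusted p = 8.14e-19), with the oocyte the lower in all 19 complexes.

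**Figure D1:**
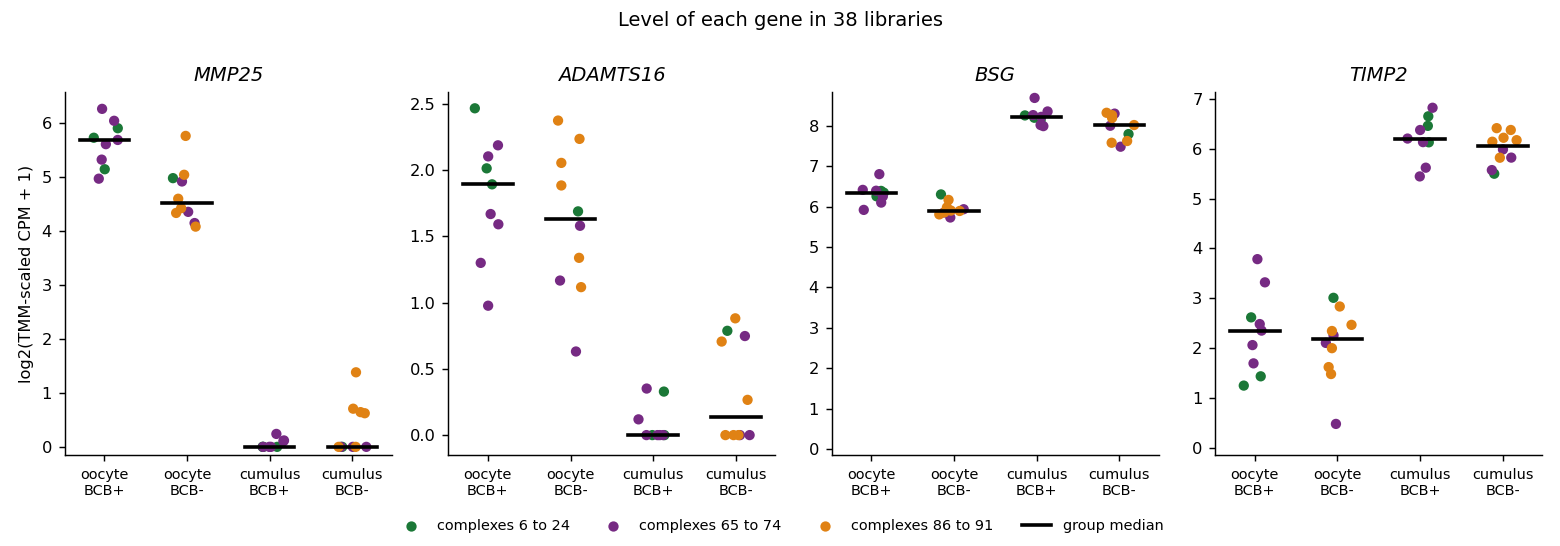
Transcript level of MMP25, ADAMTS16, BSG and TIMP2 in each of 38 libraries, as log2 of scaled CPM plus 1, with points coloured by run of complex numbers and a bar at the median of each group. MMP25 and ADAMTS16 lie near 0 in cumulus cells, BSG and TIMP2 lie higher in cumulus cells than in oocytes, and the BCB classes overlap in every panel. The vertical axes differ between panels.

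Cumulus RNA in an oocyte library would add to the TIMP2 and BSG measured there, so both were set beside the cumulus markers of the same complexes. The sum of the 8 markers in oocytes was 1.1% of that in the own cumulus cells at the median, from 0.27% in complex 17 to 11.3% in complex 72. TIMP2 stood at 5.52% at the median (0.834% in complex 65, 15.9% in complex 6) and was above the percent of the summed markers in 19 of 19 complexes, as was BSG. Single markers could stand higher than TIMP2, as CYP19A1 did at 2.29% in complex 65 and 74.7% in complex 6. In complex 72, with the highest TIMP2, the oocyte held 15.5% of its cumulus level of TIMP2, and 7.56% (CYP19A1) to 14.2% (SERPINE2) of the single markers, among them 11.9% of INHA and 11.5% of FSHR. INHA encodes a subunit of inhibin and FSHR the receptor of follicle-stimulating hormone, both typical of granulosa and cumulus cells. The single markers were not alike, with medians from 0.141% for INHA to 3.95% for SERPINE2 and 4.15% for CYP19A1, the aromatase gene. Since low sums in oocytes rested mostly on SERPINE2, the sum is one of several possible yardsticks.

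Across oocytes, TIMP2 was related to the summed cumulus markers with r = 0.51 and rho = 0.39 (permutation p = 0.0277 and 0.0978, adjusted over 4 genes 0.0693 and 0.148). Without the 2 complexes farthest from the median of the marker sum, r was 0.25, and without complex 72 it was 0.26, so that this relation rested on few oocytes. Among complexes 65 to 74 alone it was 0.66 (exact permutation p = 0.0676, adjusted 0.0902). For BSG the pooled r was 0.45, and 0.06 without complex 72. For MMP25 and ADAMTS16, which cumulus cells hardly hold, r was 0.46 and 0.39. Within complexes 65 to 74 r was 0.80 for ADAMTS16 (exact permutation p = 0.00581, adjusted 0.0192) and, as a description, 0.80 for BSG. In that run the marker sum separated the BCB classes, with 82.6 to 97.7 in the 3 BCB negative oocytes and 128 to 2944 in the 6 BCB positive ones, so that a relation with the markers and a difference between the classes cannot be told apart there. Leaving out complex 72 moved the compartment difference of TIMP2 to -4.67 and that of BSG to -2.45.

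**Figure D2:**
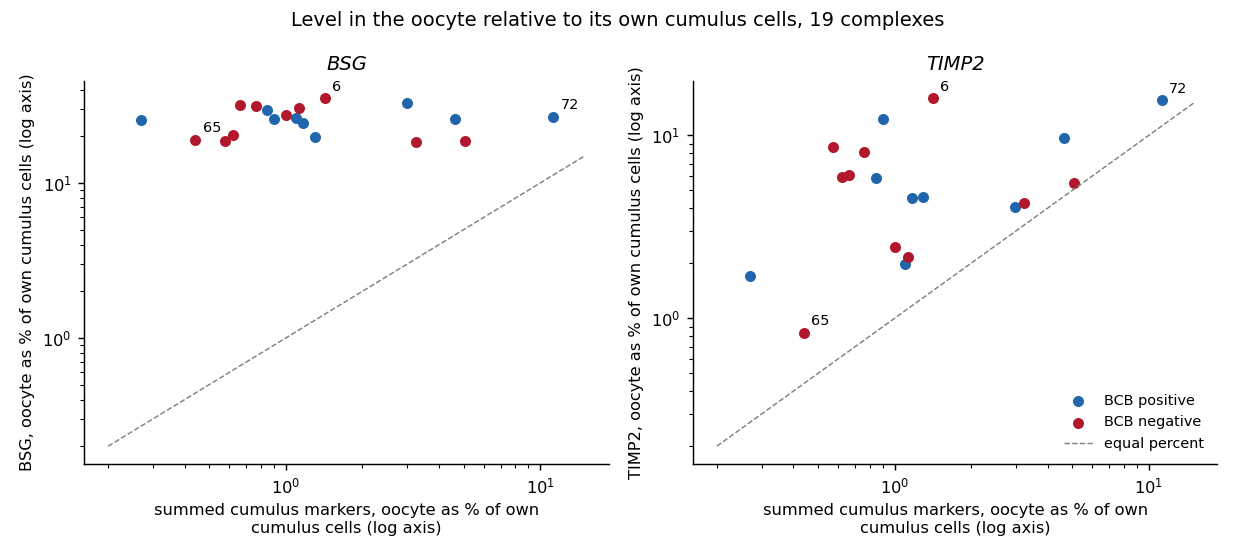
Level of BSG and of TIMP2 in the oocyte as a percent of the level in its own cumulus cells, against the same percent for 8 summed cumulus markers, with 1 point per complex on log axes and a dashed line where both percents are equal. All points lie above the line, BSG far above it, and complex 72 lies at 11.3% of the markers and 15.5% of TIMP2.

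Other genes of the same pathways were counted from lists of 85 symbols, of which 22 had an identifier here and all 22 entered the comparison between compartments. Of these, 6 were higher in oocytes and 13 lower. The direction was free only for the 16 genes that passed the filter on low values in both compartments, of which 2 were higher and 11 lower. Of all 10281 genes that passed in both, 43.7% were called higher and 41.2% lower. ADAMTS4, ADAMTS12, PLG and COL1A2 had passed only through oocytes and ADAMTS5 and ADAMTS10 only through cumulus cells, so that their directions below were fixed by the filter. Against the shares of all genes called, the set is small and its named members were found in the study's tables, so that the count describes these genes alone. Among the ADAMTS proteases, 7 were measured, and the 3 of them kept in both compartments were all lower in oocytes, with a median log2 difference of -2.56 against 0.06 over all genes kept in both. The fit put ADAMTS4, an aggrecanase, at 8.46 ± 0.38 (SE) and ADAMTS12 at 4.72 ± 0.38. ADAMTS3, which cuts the ends of procollagens, stood at -4.98 ± 0.23, ADAMTS5, an aggrecanase as well, at -4.76 ± 0.45, and ADAMTS10 at -3.68 ± 0.39.

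MMP14, the only further matrix metalloproteinase with an identifier, is the membrane-type enzyme with which TIMP2 acts on MMP2. It was lower in oocytes, with -3.85 ± 0.38 (SE, edgeR adjusted p = 5.65e-12), as was TIMP2 and unlike MMP25. Of 6 listed inhibitors other than TIMP2, none had an identifier. Of 5 binding partners and relatives of basigin, 1 was higher and 2 lower, with a median of 0.02. SLC16A3, a lactate transporter that travels with basigin, was at -4.12 ± 0.38 and PPIB, a cyclophilin, at -3.68 ± 0.12, both the same way as BSG. NPTN, a close relative of basigin, was higher in oocytes by 0.28 ± 0.07 over all complexes, a call that was lost within BCB positive complexes (0.20 ± 0.09, edgeR adjusted p = 0.0495). SLC16A1, the other lactate transporter measured, had 0.02 ± 0.12 and did not pass.

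Of 4 proprotein convertases and members of the plasminogen system kept in both, 1 was higher and 3 lower (median -1.29). FURIN, a convertase that activates membrane-type metalloproteinases and ADAMTS enzymes, was higher in oocytes by 2.66 ± 0.12, and PLG, the gene of plasminogen, which passed the filter in oocytes alone, had 3.69 ± 0.42. SERPINE2, an inhibitor of serine proteases that also stands among the cumulus markers above, had -4.92 ± 0.27 and the convertase PCSK7 -0.96 ± 0.14. Of the follicular matrix, 3 genes were kept in both compartments, with none higher and 2 lower (median -5.54). VCAN, the proteoglycan versican, had -5.86 ± 0.28 and LAMB2, a laminin chain, -5.54 ± 0.43. COL1A2, a chain of type I collagen that passed the filter in oocytes alone, had 2.79 ± 0.42, with 4.66 ± 0.66 within BCB positive and 0.93 ± 0.52 within BCB negative complexes. None of the 22 genes changed direction with DESeq2 size factors or with library totals alone, although the latter moved the median of all genes tested from 0.15 to 0.56. With library totals ADAMTS7 (-0.91 with TMM scaling) no longer passed, while SLC16A1 and ITGB1 did, as higher in oocytes. ITGB1 (0.13 with TMM scaling) also passed with DESeq2, with its size factors and without the filter, and LAMB1 (0.55) with the complex number as a block.

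**Figure D3:**
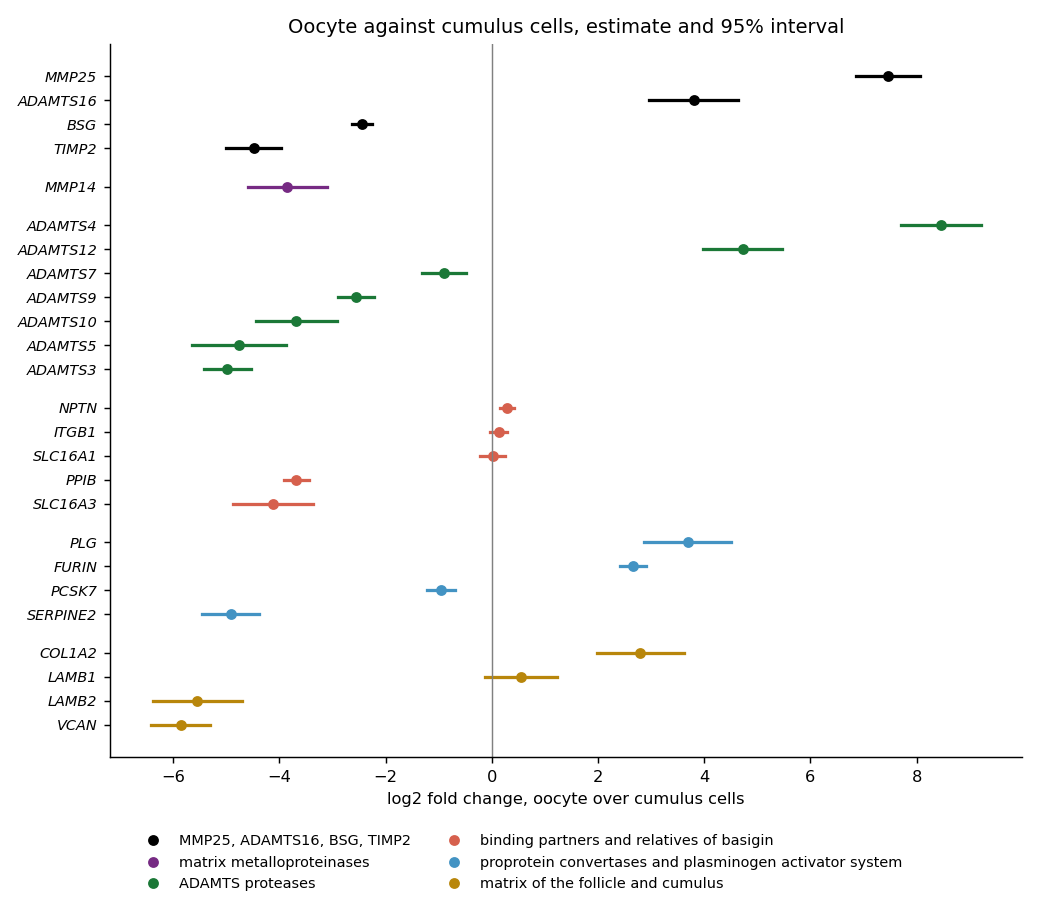
Log2 fold change of oocytes over cumulus cells from edgeR for MMP25, ADAMTS16, BSG and TIMP2 and for genes of their pathways, grouped by list, with bars for the 95% interval. Values right of 0 are higher in oocytes, as for MMP25 (7.46) and ADAMTS4 (8.46), and values left of 0 higher in cumulus cells, as for TIMP2 (-4.49) and VCAN (-5.86).

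Whether the 4 transcripts differed with the staining class of the oocyte was the next comparison. MMP25 and BSG are named in the study's table of BCB differences in oocytes, so their differences in oocytes are descriptions. In this comparison, 0% of the 12753 oocyte genes were called by edgeR at an FDR of 0.01 (5.58% had an unadjusted p under 0.05, and DESeq2 called 1 gene). In BCB positive oocytes MMP25 ran from 30.2 scaled CPM in complex 70 to 75.3 in complex 71, with a median of 50.2. In BCB negative oocytes it ran from 15.9 in complex 86 to 52.9 in complex 88, with a median of 21.7. Of the BCB negative oocytes, 7 of 10 lay below the lowest BCB positive oocyte, and 3 of 9 BCB positive oocytes above the highest BCB negative one. The fitted log2 difference was 0.95 ± 0.21 (SE), BCB positive being higher.

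Within the run from 65 to 74 MMP25 was at 30.2 to 75.3 in the 6 BCB positive oocytes and at 16.6, 19.4 and 29.1 in the 3 BCB negative ones. How many other genes part these few oocytes in the same way was not counted. The difference of MMP25 was 1.25 ± 0.30 within this run and 1.07 ± 0.30 over all complexes with the run as a covariate. The 6 BCB negative oocytes of the run from 86 to 91 had a median of 21.7, close to that of all BCB negative oocytes, and included the highest, complex 88, at 52.9. That oocyte also had the highest cumulus marker sum of its class, 738. The cumulus marker sums of complexes 65 to 74 separated the classes as well (82.6 to 97.7 in BCB negative and 128 to 2944 in BCB positive oocytes), and their part in the differences of MMP25, BSG, ADAMTS16 and TIMP2 within this run was not tested.

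BSG in oocytes was higher in BCB positive complexes by 0.39 ± 0.10 on the log2 scale. BCB positive oocytes ran from 59.6 scaled CPM in complex 71 to 111 in complex 72 with a median of 80.5, and BCB negative oocytes from 52.2 in complex 68 to 78.1 in complex 6 with a median of 58.7. Of the BCB positive oocytes, 5 of 9 were above all BCB negative ones. Complex 71 had the most MMP25 and the least BSG of its class. Within the run from 65 to 74 the difference of BSG was 0.52 ± 0.18, and without complex 72 over all complexes it was 0.32 ± 0.09.

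ADAMTS16 and TIMP2 were not picked from this comparison and were tested. ADAMTS16 ran from 0.968 to 4.53 scaled CPM in BCB positive oocytes (median 2.71) and from 0.549 to 4.18 in BCB negative oocytes (median 2.11). The classes overlapped almost wholly, and the log2 difference of 0.21 ± 0.32 (SE, edgeR adjusted p = 0.958, 95% interval -0.41 to 0.83) was smaller than its error. It was 0.85 ± 0.50 within the run from 65 to 74 (adjusted p = 0.35), where the 3 BCB negative oocytes had 0.549, 1.24 and 1.99. TIMP2 ran from 1.37 to 12.8 in BCB positive oocytes (median 4.09) and from 0.389 to 7.04 in BCB negative oocytes (median 3.53). Its difference of 0.45 ± 0.42 (adjusted p = 0.925, interval -0.37 to 1.27) fell to 0.11 ± 0.40 without complex 72, and was 1.31 ± 0.71 within the run from 65 to 74 (adjusted p = 0.316). These intervals leave room for differences of either sign over all complexes.

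In cumulus cells the classes were compared in BSG and TIMP2 alone, since the others were too scarce. Here 0.56% of 12313 genes were called, 0.0406% as higher and 0.52% as lower in BCB positive complexes. These 69 calls became 10 without complexes 66 and 68, 2 with the log10 library total as a covariate and 1732 with library totals in place of TMM. TIMP2 ran from 42.6 in complex 74 to 112 in complex 70 in BCB positive cumulus (median 72.9) and from 44.3 in complex 6 to 84.4 in complex 86 in BCB negative cumulus (median 66.1). The difference of 0.22 ± 0.17 on the log2 scale did not pass (edgeR adjusted p = 0.508, interval -0.12 to 0.56). With the run as a covariate it was 0.52 ± 0.23 (adjusted p = 0.205), within complexes 65 to 74 it was 0.36 ± 0.29 (adjusted p = 0.58), and with the log10 library total as a covariate it was 0.093 ± 0.22 (adjusted p = 0.926). BSG, which the study's cumulus table also names, ran from 255 to 414 in BCB positive cumulus (median 299) and from 179 to 320 in BCB negative cumulus (median 258), a fitted difference of 0.26 ± 0.14, of 0.30 ± 0.22 within complexes 65 to 74 and of 0.12 ± 0.17 with the log10 library total as a covariate. With library totals in place of TMM the values became 0.68 for TIMP2 and 0.73 for BSG, and the median of all genes moved from -0.01 to 0.46 under the same change, so that relative to it both were near the main values.

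**Figure D4:**
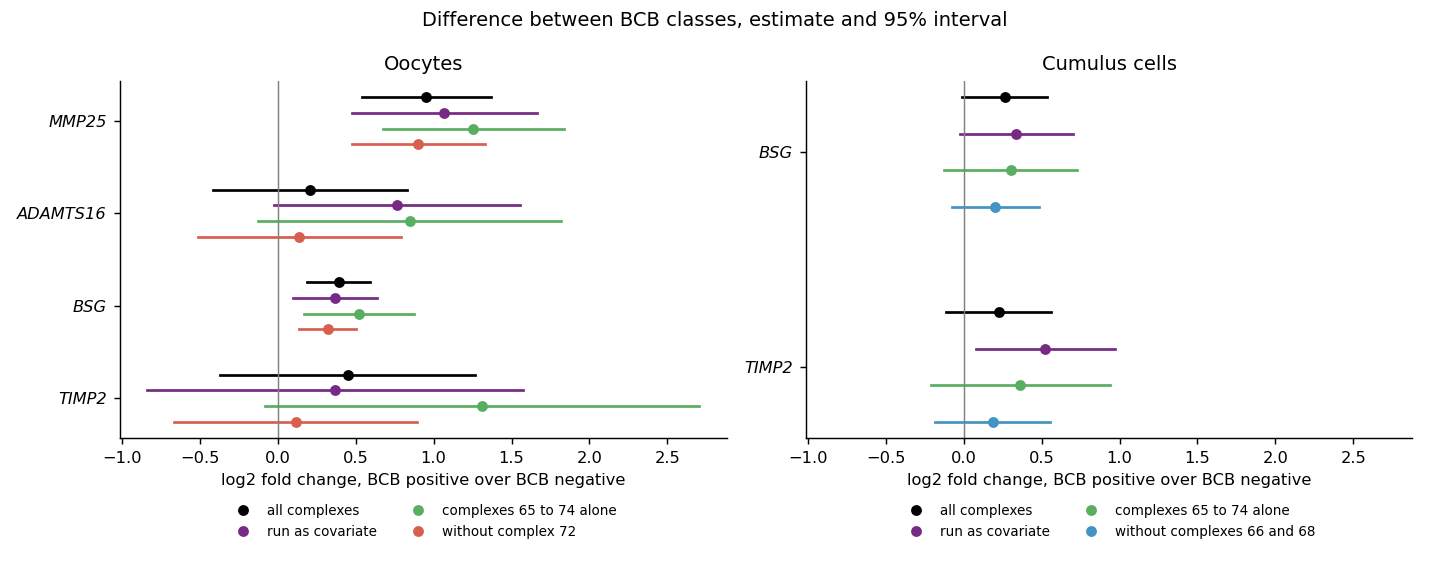
Log2 fold change of BCB positive over BCB negative complexes with bars for the 95% interval, in oocytes for 4 genes and in cumulus cells for BSG and TIMP2. Colours mark all complexes, the run of complex numbers as a covariate, complexes 65 to 74 alone, and fits without complex 72 (oocytes) or without complexes 66 and 68 (cumulus cells). The bars of ADAMTS16 and of TIMP2 in oocytes cross 0 in every fit, and the value of TIMP2 moves between 0.11 and 1.31.

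Over all complexes and with TMM scaling, none of the 20 pathway genes tested in oocytes and none of the 18 tested in cumulus cells passed in the comparison of BCB classes. In cumulus cells ADAMTS5, named after its value was seen, came closest, with -3.13 ± 0.65 (SE, edgeR adjusted p = 0.0136), lower in BCB positive complexes. It passed with DESeq2 (-3.18), with library totals (-2.43), with the run as a covariate (-4.30) and within complexes 65 to 74 (-4.91). It did not pass with DESeq2 size factors (-3.15, edgeR adjusted p = 0.0131), without the filter (-2.97, adjusted p = 0.0184), without complexes 66 and 68 (-2.64, adjusted p = 0.0306) or with the log10 library total as a covariate (-0.44, adjusted p = 0.696). FURIN (0.85) and PCSK7 (0.86) passed as higher with library totals. The symbols of tested genes come in part from tables sorted by these very differences, so that small p-values are favoured among them.

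An interaction term asked whether the BCB difference of a gene was unequal in oocytes and cumulus cells, and it called 1.7% of 14785 genes, 1.65% with the larger value in oocytes and 0.0473% with the smaller. For TIMP2 the difference between compartments was 0.23 ± 0.47 on the log2 scale (edgeR adjusted p = 0.87), so that no unequal difference was detectable, and without complex 72 its sign turned (-0.14 ± 0.44, adjusted p = 0.953). For BSG, chosen from these BCB differences, it was 0.11 ± 0.18. Both signs turned with library totals (-0.22 and -0.34), where the median of all genes moved from 0.07 to -0.38. For MMP25 the fit gave 3.51 ± 0.83 and for ADAMTS16 2.22 ± 1.00, values that rest on the 15 and 11 cumulus counts given above. With the complex number as a replicate block, MMP25 had 3.61 ± 0.94, the pathway genes called fell from 3 to 0, and the genes called in all fell from 251 to 2. The 3 called without the block were ADAMTS5 at 4.18 ± 0.85, ADAMTS4 at 4.36 ± 1.04 and COL1A2 at 3.74 ± 0.84. Each was too scarce to pass the filter in the other compartment, so that these values rest on low levels there and are given with no p. Without complex 72 they were 4.08, 4.21 and 3.54 in the same order. Without complexes 66 and 68 they were 3.69, 3.49 and 2.91, and none of the 3 was called. COL1A2 in cumulus cells was highest in complex 68, at 35.4 scaled CPM against a median of 1.57 in BCB negative complexes.

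Among BCB negative complexes, the 6 numbered 86 to 91 were compared with the 4 earlier ones. Their cumulus totals did not overlap, with 2164674 to 8013318 counts in late and 1103200 to 1772144 in earlier complexes. MMP25 and ADAMTS16 were chosen for co-expression that keeps these totals, so their values have no p. In oocytes 0.047% of 12753 genes were called, 0.0157% as higher and 0.0314% as lower in late complexes. These 6 calls became 0 with library totals, and leaving out single complexes gave 0 to 261. ADAMTS16 had a median of 2.92 scaled CPM in the late oocytes (1.17 to 4.18) and values of 0.549, 1.24, 1.99 and 2.22 in the earlier ones. Among late oocytes 4 of 6 exceeded all earlier ones, and the fitted difference was 0.84 ± 0.44 on the log2 scale. MMP25 had 0.19 ± 0.32, -0.12 without complex 88 and 0.87 ± 0.54 with the log10 library total as a covariate. BSG (-0.03 ± 0.13, edgeR adjusted p = 0.888) and TIMP2 (-0.03 ± 0.55, adjusted p = 0.98) did not pass, and without complex 6 they had 0.10 and 0.55. With the log10 library total as a covariate BSG had -0.44 ± 0.24 (adjusted p = 0.776). In cumulus cells, where 0% of 12313 genes were called by edgeR (4.79% at an unadjusted p under 0.05, and 3 genes by DESeq2), TIMP2 stood at 55.6 to 84.4 in late complexes and at 44.3, 46.6, 55.6 and 62.5 in earlier ones. Among late complexes 5 of 6 were above all earlier ones, but the difference of 0.50 ± 0.22 did not pass (edgeR adjusted p = 0.981, unadjusted 95% interval 0.07 to 0.92). BSG had 0.13 ± 0.25 (adjusted p = 0.992, interval -0.35 to 0.61). Without complexes 66 and 68 these became 0.70 ± 0.28 for TIMP2 (adjusted p = 0.913) and -0.02 ± 0.31 for BSG (adjusted p = 0.995), the latter with its sign turned.

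The pairing of each oocyte with its own cumulus cells allowed BSG and TIMP2 to be related across compartments, over 19 complexes and on the log2 scale. BSG is named in the BCB tables of both compartments, so its relation is a description, with r = 0.45 and rho = 0.32. Without complexes 66 and 87, the 2 farthest from the median of the cumulus level, r was 0.34, and without complex 72 alone 0.23, so that complex 72, the highest in both compartments, carried much of it. Split by class, r was 0.65 in BCB positive complexes and -0.17 in BCB negative ones, and it was 0.66 within complexes 65 to 74. For TIMP2 r was 0.12 and rho 0.06 (permutation p = 0.63 and 0.798), and r was 0.58 within complexes 65 to 74 (exact permutation p = 0.102). On this scale no relation was detectable over all complexes between the TIMP2 level of an oocyte and that of its cumulus. On the inverse hyperbolic sine of counts over the TMM factor, which keeps differences in library total, r was 0.45 and rho 0.42 (permutation p = 0.055 and 0.0719).

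The 4 genes were also related among themselves, over 7 pairs, 6 in oocytes and BSG with TIMP2 in cumulus cells. No r over all complexes passed an adjusted p of 0.05. BSG with TIMP2 in oocytes had r = 0.45 (permutation p = 0.0523, adjusted 0.223), 0.69 within BCB positive and 0.13 within BCB negative oocytes, 0.73 within complexes 65 to 74, and 0.24 without the 2 oocytes farthest from the median. MMP25 and BSG were both chosen for their BCB difference in oocytes, so their relation is a description, with r = 0.43 over all oocytes but -0.11 within BCB positive and -0.20 within BCB negative oocytes, and 0.46 within complexes 65 to 74. MMP25 with TIMP2 had r = 0.34 (permutation p = 0.148, adjusted 0.268), -0.02 within BCB positive oocytes, 0.61 with rho 0.76 within BCB negative ones (permutation p = 0.0643 and 0.0147, adjusted 0.45 and 0.103) and 0.48 within complexes 65 to 74. MMP25 with ADAMTS16 had r = 0.34 (permutation p = 0.153, adjusted 0.268).

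Co-expression sets brought MMP25, ADAMTS16 and TIMP2 to attention, and their counts of partners are descriptions. They were computed on the scale of the study's code, the inverse hyperbolic sine of counts divided by the TMM factor, which keeps differences in library total. MMP25 in oocytes had r of at least 0.85 with 95 of 12313 cumulus genes over all complexes. ADAMTS16 in oocytes had r of at least 0.98 with 27 cumulus genes within BCB negative complexes, and TIMP2 in cumulus cells had r of at least 0.99 with 5 of 12753 oocyte genes within BCB positive complexes. The coefficient was above 0 for 98.9%, 98% and 99.8% of the genes of the other compartment in these 3 cases. BSG had no partner at any of the thresholds, and its highest r over all complexes was 0.80 from the oocyte and 0.83 from cumulus cells. When counts were also scaled to the library total, all 3 counts became 0, with highest coefficients of 0.84, 0.91 and 0.98.

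Beside this stand the relations with the library totals themselves, given with no p where the sets above already rest on them. Oocyte MMP25 had r = 0.59 with the log10 total of the partner cumulus library in the 19 complexes, 0.34 in BCB positive and 0.17 in BCB negative ones. It was 0.80 in complexes 65 to 74, where the cumulus totals were 1103200 to 1650795 in BCB negative and 4386946 to 10430148 in BCB positive complexes. MMP25, chosen for its BCB difference, was also higher in the BCB positive oocytes there, so that class and total cannot be told apart in this run. ADAMTS16 had 0.47 in all, 0.60 in complexes 65 to 74, -0.27 in BCB positive and 0.83 in BCB negative complexes, where it was 0.83 again without the 2 complexes farthest from the median. The same step took ADAMTS16 in all complexes from 0.47 to 0.29 and MMP25 in BCB positive complexes from 0.34 to -0.13, and left MMP25 in all complexes at 0.59. TIMP2 in cumulus cells had r = 0.59 with the log10 total of the oocyte library within BCB positive complexes. With the total of its own library, MMP25 had -0.27 (permutation p = 0.267) and ADAMTS16 0.17 (permutation p = 0.473), adjusted over 12 relations 0.423 and 0.631. The part of library depth in the co-expression counts was not tested beyond these values.

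**Figure D5:**
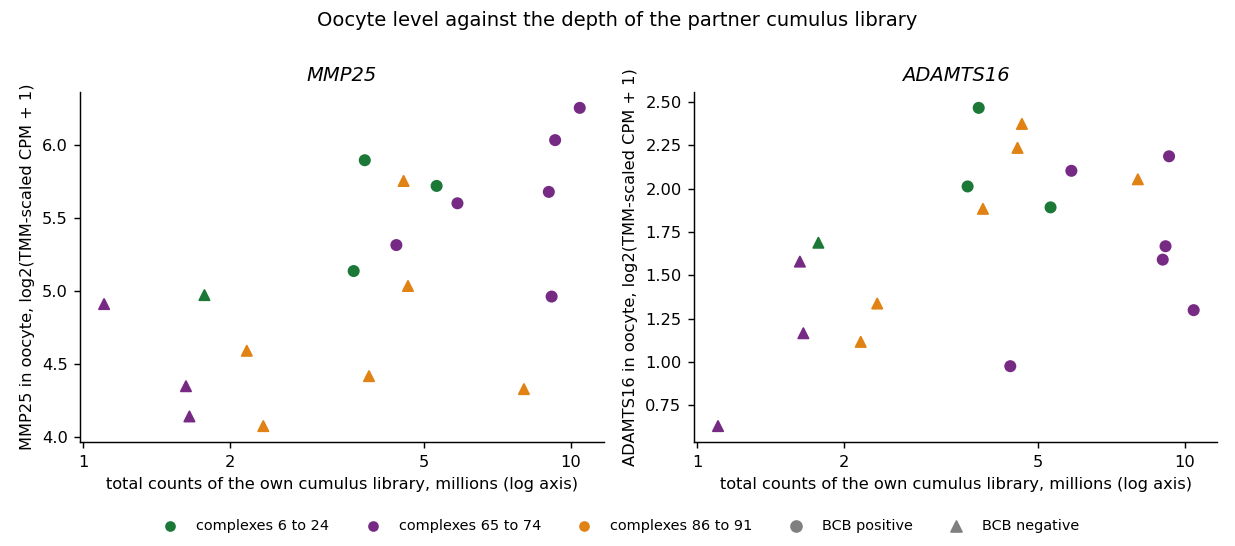
Level of MMP25 and ADAMTS16 in the oocyte, as log2 of scaled CPM plus 1, against the total counts of the matching cumulus library on a log axis, with colours for runs of complex numbers and shapes for BCB classes. ADAMTS16 follows the total within BCB negative complexes (triangles, r = 0.83) and not within BCB positive ones (circles, r = -0.27).

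The genes with the most similar pattern were sought among named genes of the same compartment by Spearman's rho over 19 libraries, as a description. For MMP25 in oocytes they were ILVBL (0.78), SV2A (0.72) and C17H12orf43 (0.71), among 4595 genes with a median rho of 0.02. Within BCB positive oocytes these were 0.50, 0.68 and 0.72, and within BCB negative ones 0.61, 0.15 and 0.05. ADAMTS16 was most like DFFB (0.87), RGS6 (0.84) and TPRN (0.77), and DFFB kept 0.90 within BCB positive and 0.85 within BCB negative oocytes. BSG was most like UBAP1 (0.85), RPN2 (0.78) and SIL1 (0.77) in oocytes and like NCSTN (0.85), CLPTM1 (0.81) and SDF4 (0.81) in cumulus cells. RPN2 is a subunit of the oligosaccharyltransferase that glycosylates proteins in the endoplasmic reticulum, SIL1 a nucleotide exchange factor there, NCSTN a subunit of gamma-secretase and SDF4 a calcium-binding protein of the Golgi. TIMP2 was most like XYLT2 (0.73), RAB20 (0.69) and TMTC4 (0.66) in oocytes and like DNAL1 (0.81), CAB39L (0.78) and SERPINB1 (0.73) in cumulus cells. XYLT2 is a xylosyltransferase that starts the glycosaminoglycan chains of proteoglycans, and SERPINB1 an inhibitor of neutrophil proteases.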

How the data were processed

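Single oocytes and the cumulus cells of 19 complexes were sequenced, 38 libraries in all, from oligo-dT primed, template-switched cDNA. Per the labels and the methods, the authors aligned reads to ARS-UCD1.2 with HISAT2 2.1.0, discarded duplicate reads and counted the rest per Ensembl gene with featureCounts 1.6.0, and the strand setting is not given in the sources used here. The deposited values are raw counts per gene, whole numbers, 1 table per compartment. Everything further was computed from these counts. Reads of overlapping genes could be split between them or lost, and in RefSeq's ARS-UCD2.0 annotation CEP295NL overlaps TIMP2, while no gene overlaps the other 3. Symbols came from supplementary tables that pair 4934 identifiers with names.

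The filter asked for more than 2 CPM in 9 or more libraries of the compartment and passed 12753 genes in oocytes, 12313 in cumulus cells and 14785 in either. Differences were tested with edgeR 4.0.16 (R 4.3.3, TMM, robust quasi-likelihood test, Benjamini-Hochberg adjustment over all genes tested, FDR 0.01). Errors of fold changes are standard errors from the test statistic. The text names MMP25, ADAMTS16, BSG and TIMP2, up to 3 rises and 3 falls per pathway list past the FDR, and the 3 named genes most alike. SLC16A1, ADAMTS5 in the BCB comparison and further called list members were added to the names once their values had been seen. The members and lists were chosen with earlier results of these data known. Relations used log2 of scaled CPM plus 1, two-sided permutation tests with 100000 resamples (all permutations under 10 complexes) and adjustment within each family. Alternatives were DESeq2 1.42.0, other scalings, no filter, covariates and subsets of complexes. Fits without complex 72 or without complexes 66 and 68, and relations with cumulus markers or between the genes, were added after seeing the data.

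The complex number pairs an oocyte with its own cumulus cells. Over 10281 genes kept in both, deviations from the group means correlated within a complex at -0.0189 to 0.215 (median 0.0761), above 0.1 in 5 of 19. In 9 of 19 complexes the oocyte correlated best with its own cumulus library among those of its class. The main fits carry no block, and the block on the complex number is an alternative. No library was a copy of another (highest r on the log2 scale 0.985 in oocytes and 0.967 in cumulus cells). Complexes are separate, but their animals are not named, so p-values measure the spread between complexes. The fits were tested on simulated data first. Sequences, coordinates and transcript lengths were not used here. 1 gene of the pathway lists is counted but not reported by name here. Tables and figures were made with Python 3.11.15, pandas 2.3.3, numpy 2.4.6, scipy 1.17.1 and matplotlib 3.10.9.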

Additional observations from a re-analysis of the deposited data

Results flagged for a closer look

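The groups of 9 or 10 libraries in which a gene was counted well were checked for a lone high or low library by Dixon's ratio of gap to range, in 12 groups, of which 3 had one. Chance alone marks about 1 group in 20. BSG in BCB positive cumulus was highest in complex 72, at 414 scaled CPM, and BSG in BCB positive oocytes was highest in complex 72 as well, at 111. The oocyte of complex 72 also held the most cumulus marker RNA (2944 summed) and the most of the red blood cell gene HBA (207), and its cumulus library the most HBA (480). MMP25 in BCB negative oocytes was highest in complex 88, at 52.9, the oocyte with the highest marker sum of its class (738). The part of the other cells' RNA in these values was not tested.

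The BCB difference of MMP25 differed between compartments by 3.51 on the log2 scale, being 0.95 in oocytes. The oocyte side of it chose the gene, and the cumulus side rests on 4 counts in BCB positive and 11 in BCB negative complexes, so that it is given as a value.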

How the results depend on the processing

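For the differences of MMP25, ADAMTS16, BSG and TIMP2, 197 values under alternatives kept their direction and their side of the FDR threshold or, where given with no test, moved by less than 1 SD of the log2 levels between complexes of a class. Another 16 turned their sign, none of them called in either fit, and 7 untested ones moved by more than that SD. These were BSG between the BCB classes in cumulus cells with library totals (0.73), the interaction of MMP25 without complex 72 (4.07, a move below its SE of 0.91), MMP25 in late against earlier oocytes with the log10 total (0.87), and the compartment differences within BCB positive and BCB negative complexes of MMP25 (9.22 and 5.70) and ADAMTS16 (4.91 and 2.69). With library totals the interaction turned to -0.34 for BSG and -0.22 for TIMP2, and without complex 72 to -0.14 for TIMP2. Late against earlier BCB negative oocytes gave, with library totals, 0.036 for BSG and 0.039 for TIMP2, with the log10 total 0.088 for TIMP2, and against complexes 65 to 68 alone 0.098 for BSG and 0.55 for TIMP2, while leaving out single complexes gave -0.12 (without complex 88) to 0.33 for MMP25, -0.11 to 0.098 for BSG and -0.40 to 0.55 (without complexes 65 and 6) for TIMP2. In cumulus cells BSG turned to -0.26 with the log10 total and to -0.019 without complexes 66 and 68. Of the correlations, those within BCB negative complexes turned for BSG (-0.17) and TIMP2 (-0.046) with their own cumulus level and for BSG in oocytes with the cumulus total (-0.14). Within BCB positive complexes they turned for ADAMTS16 with the oocyte total (-0.12) and the cumulus total (-0.27), for BSG in oocytes with the cumulus total (-0.022) and for TIMP2 in cumulus cells with its own total (-0.15). MMP25 with the oocyte total turned to 0.31 within complexes 65 to 74, and BSG in cumulus cells with the oocyte total to -0.060 without the 2 complexes farthest from the median. The counts of all genes called moved further. In oocytes by BCB class DESeq2 called 1 gene. In cumulus cells by BCB class 69 genes were called, against 360 at an FDR of 0.05, 365 with DESeq2, 1732 with library totals, 164 without the filter, 115 with the run as a covariate, 2 with the log10 library total as a covariate and 10 without complexes 66 and 68. The interaction called 251 genes, against 678 at an FDR of 0.05, 744 with DESeq2, 644 with library totals, 2 with the replicate block, 139 without complex 72 and 98 without complexes 66 and 68. The block on the complex number left the compartment differences at 7.53 for MMP25, 3.93 for ADAMTS16, -2.43 for BSG and -4.71 for TIMP2, of which the last 2 were tested and still called. The interaction value of MMP25 was 3.51, 3.61 with the block and 3.43 without the filter, and the block turned no call of BSG or TIMP2. Late against earlier BCB negative oocytes gave 6 calls, against 488 at an FDR of 0.05, 621 with DESeq2, 0 with library totals, 0 with the log10 total and 261 against complexes 65 to 68 alone, which leaves out complex 6, and leaving out single complexes gave 0 to 261 (261 without complex 6, 20 without complex 87 and 0 without any other). DESeq2 gave ADAMTS16 no adjusted p there. In cumulus cells that contrast gave 3 calls with DESeq2 and 3 without the filter. ADAMTS16 had r = 0.833 with the cumulus total within BCB negative complexes against 0.47 in all. Partners of MMP25 over all complexes numbered 95, against 0 scaled to the library total and 47 by Spearman's rho, which gave 1 within BCB positive complexes. Partners of ADAMTS16 numbered 27, against 0 and 71, and those of TIMP2 5, against 0 and 59. The causes were not tested. ADAMTS16 rests on as few as 5 counts in an oocyte, and at most 3 in cumulus cells, as MMP25 does on at most 5 there, which limits what can be seen.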
